A study of Mus musculus with 12 samples.

Results

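The NMDA receptor subunits are the genes of the ligand-gated cation channels that open when glutamate and a co-agonist, glycine or D-serine, are bound and depolarisation has removed magnesium from the pore. Their 6 genes described here are Grin1, Grin2a, Grin2b, Grin2c, Grin2d and Grin3a, chosen by name, out of 35502 genes in the deposited table. The 36 transcripts that the GENCODE vM21 annotation of mouse (GRCm38, also named mm10) gives them were taken one by one and summed per gene. Hippocampal RNA was measured in 12 adult males of the C57BL/6 strain (C57BL/6J in the study's methods) at postnatal day 70, with 3 mice per group. Control mice came from dams with water only and stayed with dam and littermates. Ethanol mice came from dams that could choose between water and 10% ethanol, so the dose was set by the dam. Ethanol was offered before mating, through gestation and until postnatal day 10, with only water during mating. Stress mice came from water dams and were isolated daily for 3 h between postnatal days 2 and 14, and ethanol + stress mice had both exposures. Pups of the same litter were divided between stress and no stress, per the study's methods, so control and stress mice, and both ethanol groups, may be littermates. The labels do not tie mice to litters or dams, so the p-values measure the spread between these 12 libraries.

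Every NMDA receptor holds GluN1, the product of Grin1, which binds the co-agonist. GluN1 is joined by GluN2 subunits, which bind glutamate and set how fast the channel closes and what its long cytoplasmic tail binds, or by GluN3 subunits, which bind glycine and lower calcium entry. In the forebrain GluN2B is the main GluN2 subunit at birth and GluN2A joins it as synapses mature, and the receptor is known as the trigger of long-term potentiation in the hippocampus. GluN1 comes in splice forms made by an extracellular cassette named N1, a cytoplasmic cassette named C1, and a choice between 2 coding ends named C2 and C2'.

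The 4 stretches of Grin1 that tell these forms apart are shown here because the splice results below rest on them. They were read from the GENCODE transcripts on the minus strand of chromosome 2. Capitals mark the cassette or the coding end, and lower case marks the 15 bases of the neighbouring exon on each side of a cassette. The N1 cassette (chr2:25311343-25311405, 63 bases, 21 codons) lies in the coding part for the extracellular amino-terminal domain. The C1 cassette (chr2:25294438-25294548, 111 bases, 37 codons) codes for the first part of the variable tail. The C2 coding end (chr2:25292368-25292484, 117 bases) and the C2' coding end (chr2:25292060-25292128, 69 bases) each close with a stop codon and follow one another in the genome, C2 first.
N1 cassette: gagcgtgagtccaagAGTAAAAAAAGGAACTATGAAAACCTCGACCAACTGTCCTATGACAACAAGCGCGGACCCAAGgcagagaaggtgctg
C1 cassette: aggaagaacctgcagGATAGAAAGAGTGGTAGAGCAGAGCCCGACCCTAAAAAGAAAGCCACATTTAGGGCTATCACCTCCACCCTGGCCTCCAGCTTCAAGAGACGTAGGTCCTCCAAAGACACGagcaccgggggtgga
C2 coding end: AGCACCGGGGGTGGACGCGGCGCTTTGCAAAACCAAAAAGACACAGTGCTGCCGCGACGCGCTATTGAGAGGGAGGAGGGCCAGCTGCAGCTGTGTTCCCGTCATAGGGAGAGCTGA
C2' coding end: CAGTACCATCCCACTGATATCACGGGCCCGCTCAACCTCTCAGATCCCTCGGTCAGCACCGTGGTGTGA

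Levels are in TPM, a relative abundance that is corrected for transcript length, which the authors estimated with kallisto. The deposited values sum to between 889222 and 1173650 per library, so they had been scaled after that step, in a way not given in the sources used here. From steps in the low values, the depth of a library was estimated at 12040000 to 14900000 read pairs. Between 79.6% and 82.0% of those values were whole within 0.1 read pair, a share taken from the same values to which the step was fitted. The libraries differ in a trend over transcript length, the slope of a transcript's log2 level against the log2 of its length, computed without the members. That slope was lowest in ethanol replicate 2 and ethanol + stress replicates 2 and 3, at -0.08, -0.05 and -0.04, and between -0.01 and 0.05 in the other 9 libraries. Markers of blood were the only marker list of which more than 1 member was called against control: all 5 were higher in ethanol and in ethanol + stress mice, beside 0.516% and 0.695% of all tested genes, with summed levels of 1603 to 2022 TPM in control, 3146 to 6815 in ethanol, 2593 to 3392 in stress and 2454 to 6480 in ethanol + stress libraries. The defining genes of hippocampal neurons were present in every library, with sums of 58.8 to 95.4 TPM for dentate granule cells, 182 to 266 for CA1 and 126 to 165 for CA3 pyramidal cells. Choroid plexus markers ranged from 40.1 to 7228 TPM, with low and high libraries in both ethanol groups. The part of these differences in the results below was not tested, except where a value without the libraries concerned is given.

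In control mice Grin1 was the highest of the 6 genes, at 105.8, 98.5 and 94.6 TPM in the 3 libraries. Grin2a stood at 85.3, 87.6 and 86.7 TPM and Grin2b at 75.4, 85.0 and 82.0 TPM. These 3 genes lay close together, and the control libraries varied little in any of them. Grin2c, the GluN2 gene best known from cerebellar granule cells, had 16.1, 16.2 and 15.6 TPM. Grin3a, the glycine-binding GluN3A gene, whose level in forebrain peaks in early postnatal life, had 13.2, 12.8 and 13.01 TPM. Grin2d, known from interneurons and the diencephalon, was the lowest at 2.82, 2.52 and 2.56 TPM. Grin3b, the remaining NMDA receptor gene and not one of the 6, lay between 0.07 and 0.45 TPM over all libraries.

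Over the 12 libraries the order of the mean levels was Grin1 (92.3 TPM), Grin2a (81.4), Grin2b (72.2), Grin2c (16.4), Grin3a (12.6) and Grin2d (2.49). The ranges of Grin1 and Grin2a overlapped, as did those of Grin2a and Grin2b, although within a library the gene with the higher mean led in 11 of 12 libraries in both pairs. The lead of Grin2a over Grin2b depends on the transcripts summed. Without the noncoding Grin2a-204, Grin2a-205 and Grin2b-207 the means were 69.6 and 69.3 TPM, and each gene led in 6 of 12 libraries. That Grin2b sum includes the 5' fragments Grin2b-203, Grin2b-204 and Grin2b-206, of 106 to 109 coding bases, with 14.4%, 8.04% and 11.9% of the gene's TPM. Transcripts with the full coding part had means of 49.6 (Grin2a-206), 19.3 (Grin2a-201) and 0.66 TPM (Grin2a-202). For Grin2b these were 29.9 (Grin2b-201) and 14.0 TPM (Grin2b-202). The lowest Grin2b library, at 37.8 TPM, was above the highest Grin2c library, at 18.7 TPM. Grin2c exceeded Grin3a in all 12 libraries, with ranges of 14.2 to 18.7 and 10.2 to 15.4 TPM. Grin3a and Grin2d did not overlap. Of the summed GluN2 TPM in control mice, Grin2a made up 46.6% ± 0.9 (SD, n = 3), Grin2b 43.4% ± 1.3, Grin2c 8.59% ± 0.34 and Grin2d 1.42% ± 0.13. With protein-coding transcripts alone the control levels of Grin2a were 69.4, 80.9 and 76.8 TPM. Those of Grin2b, its fragments included, were 75.4, 79.3 and 79.5, so that Grin2b led in 2 of the 3.

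**Figure D1:**
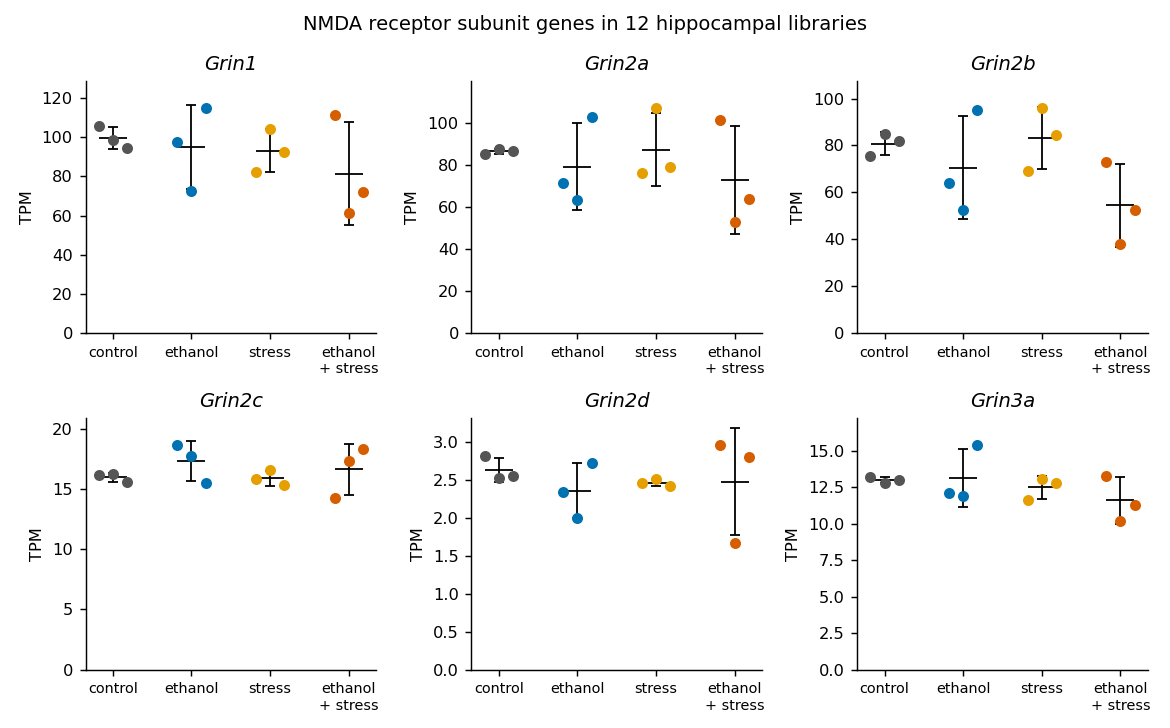
Level in TPM (vertical axes, from 0) of the 6 subunit genes in each of the 12 libraries, by group, with black bars for the mean ± SD of 3 libraries. Control libraries lie close together, while Grin1, Grin2a and Grin2b spread more widely in all 3 treated groups, for Grin2b from 37.8 to 73.0 TPM in ethanol + stress and from 69.3 to 96.0 in stress mice.

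No subunit gene was called in any comparison. A gene was called at an unadjusted p under 0.01 in a limma model of all 12 libraries on log2(TPM + 0.5), the threshold of the study's RNA-Seq lists. Beside the 0 of 6 members, 0.679% of the 18420 tested genes were called for ethanol, 0.51% for stress, 0.972% for ethanol + stress and 0.461% for the interaction, which is the difference between the ethanol + stress effect and the sum of both single effects. At an unadjusted p under 0.05 the limma model gave 0 members for ethanol, stress and the interaction, beside 3.64%, 2.4% and 2.69% of all tested genes, and 1 for ethanol + stress, beside 5.37%. Of the 6 members, 0, 1 and 1 had treated libraries that did not overlap control in ethanol, stress and ethanol + stress mice, beside 8.26%, 7.2% and 10.2% of tested genes.

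Grin2b in ethanol + stress mice was that member. Its levels were 73.0, 37.8 and 52.7 TPM, against 75.4, 85.0 and 82.0 TPM in control mice. All 3 ethanol + stress libraries were below all control libraries, as was the case for 4.62% of tested genes in this comparison, but replicate 1 lay only just below the lowest control library. The fitted difference was -0.61 on the log2(TPM + 0.5) scale (SE 0.24, 95% interval -1.14 to -0.09, Benjamini-Hochberg adjusted p = 0.791 in limma). In ethanol mice Grin2b had 64.0, 52.4 and 95.03 TPM and in stress mice 69.3, 96.0 and 84.4 TPM, and both groups overlapped control. The fitted differences were -0.24 (SE 0.24) for ethanol and 0.03 (SE 0.24) for stress. Leaving out each replicate in turn gave -0.47 to -0.048 for Grin2b in ethanol mice.

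The Grin2b difference changed in size between settings, including those that take up the length trend of the libraries. The part of that trend, and of the marker levels given further on, was not tested and cannot be told apart from the exposure. With recovered read pairs the difference was -0.76 (95% interval -1.51 to -0.02). Ethanol + stress replicates 2 and 3 are among the 3 libraries with the lowest slope. With the slope of each library as a covariate of the model, the Grin2b difference was -0.27, with a smaller SE of 0.13 (95% interval -0.55 to 0.01). Without the 3 libraries of lowest slope, which leaves 1 ethanol + stress library that is assumed to vary like the other groups, it was -0.14 (SE 0.22, 95% interval -0.64 to 0.36). Neither fit called it. Without ethanol + stress replicate 1 the difference was -0.85, and Grin2b and Grin1 (-0.58) were then called (adjusted p = 0.237 for both in limma), in a fit that called 764 of 18420 genes instead of 179. Without ethanol + stress replicate 2 the Grin2b difference was -0.38.

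Grin1 had 111.2, 61.1 and 71.9 TPM in ethanol + stress mice, 97.8, 72.5 and 115.0 in ethanol mice and 82.5, 104.3 and 92.7 in stress mice. Each of these groups overlapped control. The fitted difference was -0.34 (SE 0.21) for ethanol + stress, -0.09 (SE 0.21) for ethanol and -0.10 (SE 0.21) for stress. Grin2a followed the same libraries, with 101.6, 52.7 and 63.8 TPM in ethanol + stress mice, 71.2, 63.5 and 102.8 in ethanol mice and 76.0, 107.1 and 78.8 in stress mice. Its differences were -0.31, -0.16 and 0.00 on the log2 scale, each with an SE of 0.23. Leaving out each replicate in turn gave -0.36 to -0.016 for Grin2a in ethanol mice. Without the 3 libraries of lowest slope the ethanol + stress differences of Grin1 and Grin2a were 0.16 and 0.23, above control.

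The 3 lower genes showed no larger differences. Grin2c had 18.7, 17.8 and 15.5 TPM in ethanol mice, 15.8, 16.5 and 15.3 in stress mice and 14.2, 17.3 and 18.3 in ethanol + stress mice. It ran against the other subunits: the libraries with the least Grin1 had more Grin2c. Grin3a had 12.1, 11.9 and 15.4 TPM in ethanol, 11.6, 13.1 and 12.8 in stress and 13.3, 10.2 and 11.3 in ethanol + stress mice. Grin2d had 2.35, 2.01 and 2.73 TPM in ethanol, 2.46, 2.51 and 2.42 in stress and 2.97, 1.67 and 2.81 in ethanol + stress mice. All 3 stress libraries were below control for Grin2d, by a gap between 2.51 and 2.52 TPM, and 3.39% of tested genes had all stress libraries below control. For these 3 genes the fitted differences from control lay between -0.17 and 0.11 on the log2 scale, and the narrowest 95% intervals, those of Grin2c, ran from -0.14 to 0.35 for ethanol, from -0.25 to 0.24 for stress and from -0.20 to 0.29 for ethanol + stress.

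**Figure D2:**
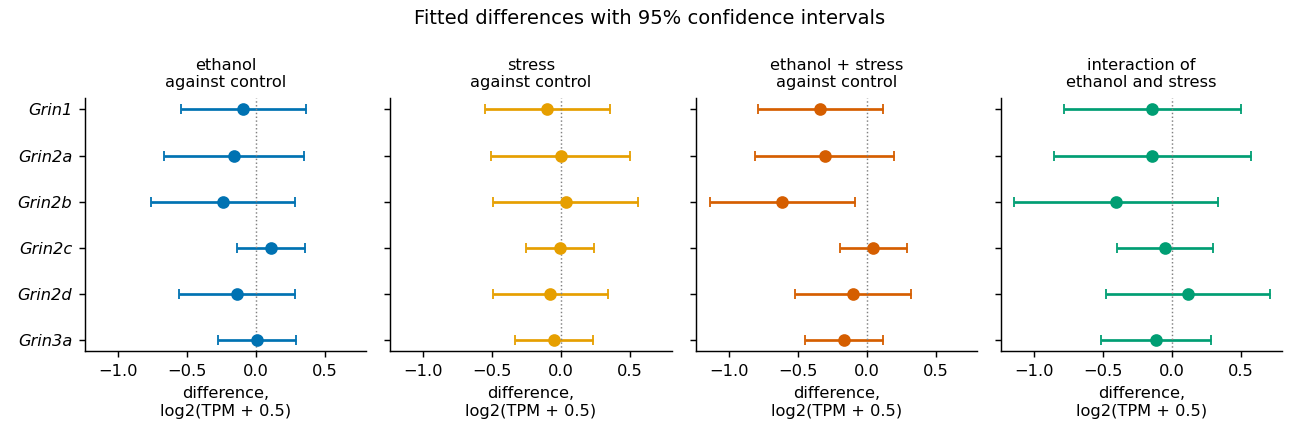
Fitted difference on the log2(TPM + 0.5) scale (horizontal axes) with its 95% confidence interval for each subunit gene against control in the 3 treatments, and the interaction in the last panel. Only the interval of Grin2b for ethanol + stress, -1.14 to -0.09, leaves out 0.

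The interaction had no member with a p under 0.05 in limma. Its lowest p was that of Grin2b (-0.41, SE 0.34), where the interval from -1.15 to 0.34 covers both directions. Leaving out each replicate in turn put the Grin2b interaction between -0.64 and -0.17. With the library slope as a covariate it was -0.46 (95% interval -0.82 to -0.10), which leaves out 0 but was not called, and without the 3 libraries of lowest slope it was -0.13 (95% interval -0.77 to 0.51). The median difference of the 6 members was -0.11 for ethanol, -0.03 for stress and -0.24 for ethanol + stress, beside medians over all tested genes of 0.02, 0.00 and 0.02. The AMPA receptor subunits Gria1 to Gria4, which carry the fast part of the same synaptic current, had medians of -0.19, -0.06 and -0.26, and none was called.

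The main subunits varied together from library to library. The sum of Grin1, Grin2a and Grin2b was lowest in ethanol + stress replicate 2 (151.7 TPM), ethanol + stress replicate 3 and ethanol replicate 2 (188.4 TPM each), and between 227.8 and 312.8 TPM in the other libraries. These are the same 3 libraries that have the lowest slopes over transcript length. They also stood apart in other measures: their 20 highest transcripts held 27.5% to 29.2% of the TPM, against 20.3% to 25.0% in the other 9, and their summed astrocyte markers, with 3 of 5 genes above all other libraries, were 1101 to 1173 TPM against 737.5 to 967.4. Blood markers, 3 of 5 likewise, summed to 3977 to 6815 TPM against 1603 to 3472, and microglia markers, 1 of 5, to 261.1 to 308 against 197 to 249. CA1 markers, with 2 of 4 genes below all other libraries, summed to 182 to 202 TPM against 205 to 266. In CA3 markers 2 of 4 genes and in interneuron markers 2 of 6 were likewise below all other libraries, with sums of 129 to 134 against 126 to 165 and of 644 to 661 against 642 to 747 TPM. In dentate granule cell markers 0 of 4 genes lay above or below all other libraries, with sums of 75.4 to 77.2 against 58.8 to 95.4 TPM. In oligodendrocyte markers 1 of 5 was above, with sums of 5085 to 5908 against 2638 to 5335 TPM. The part of cell composition in the lower subunit levels was not tested and cannot be told apart from the slope in these libraries. Over the 12 libraries Pearson's r of the log2 levels was 0.93 for Grin1 with Grin2a, 0.92 for Grin2a with Grin2b and 0.88 for Grin1 with Grin2b, and -0.58 to -0.68 for Grin2c with each of them. These values describe libraries that also differ in depth, in the sum of their TPM and in this trend, whose part in the correlations was not tested.

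**Figure D3:**
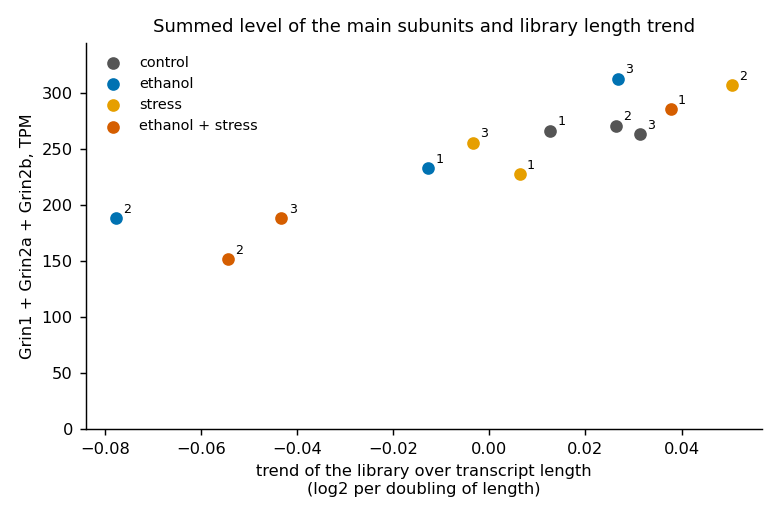
Sum of Grin1, Grin2a and Grin2b in TPM (vertical axis, from 0) against the slope of each library over transcript length (horizontal axis, computed without these genes), with points coloured by group and numbered by replicate. The 3 points at the lower left, ethanol replicate 2 and ethanol + stress replicates 2 and 3, hold 151.7 to 188.4 TPM, and the others 227.8 or more.

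Among 11233 genes with a mean of 5 TPM or more, those whose log2 level followed Grin1 most closely were Unc13a, Ap2b1 and Pcnx2 (r = 0.98 each over the 12 libraries). Unc13a codes for a synaptic vesicle priming protein and Ap2b1 for a clathrin adaptor subunit. Grin2a was followed most closely by Rapgef2, Wdr81 and Supt6 (0.98 each). Grin2b was followed by Herc1 (0.98), Mycbp2 and Scn2a (0.97 each), of which Herc1 and Mycbp2 code for very large ubiquitin ligases and Scn2a for a neuronal sodium channel. The longest transcripts of these 9 genes measure between 5625 and 15233 bases, which was not compared with the lengths of the other ranked genes.

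Seen by transcript, the longest forms of Grin2a and Grin2b had the widest range in TPM. Grin2b-201 measures 24060 bases, of which 4446 are coding and 18865 are 3' UTR, and Grin2b-202 carries a coding part of the same 4446 bases with a 3' UTR of 2272. Grin2b-201 had 34.5, 34.9 and 36.1 TPM in control, 24.3, 15.8 and 45.7 in ethanol, 23.2, 48.9 and 31.3 in stress and 34.2, 11.8 and 17.6 in ethanol + stress mice. Grin2b-202 stayed between 11.2 and 16.03 TPM in all 12 libraries. In ethanol + stress mice the difference from control was -0.85 (SE 0.43, 95% interval -1.79 to 0.09) for the long form and -0.21 (SE 0.13, 95% interval -0.50 to 0.07) for the shorter one. With the length trend removed from each library's values the long form differed by -0.74 (95% interval -1.49 to 0.02), with recovered read pairs by -0.88 (95% interval -1.84 to 0.09), and with the library slope as a covariate by -0.24 (95% interval -0.64 to 0.17). The short 5' fragments Grin2b-203, of 630 bases, and Grin2b-204, of 703, varied as well, from 5.73 to 14.8 and from 2.68 to 9.29 TPM. Grin2b-203 had 9.77, 7.09 and 7.87 TPM in ethanol + stress and 12.2, 11.8 and 10.0 in control mice, which did not overlap (-0.44, SE 0.32, adjusted p = 0.89 in limma). Grin2b-204 was lowest in ethanol replicate 2 and ethanol + stress replicates 2 and 3, the libraries of lowest slope.

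Grin2a had the same arrangement. Grin2a-206, with 14634 bases and a 3' UTR of 9929, had 52.9, 61.3 and 58.0 TPM in control, 37.8, 26.3 and 67.2 in ethanol, 45.6, 75.9 and 48.1 in stress and 66.5, 23.8 and 32.3 in ethanol + stress mice. Grin2a-201 is annotated with 4395 bases and no 3' UTR, shares its 4392 coding bases with the long form, and ranged from 14.5 to 24.3 TPM. All ethanol and all stress libraries were above the control libraries in Grin2a-201, beside 10.2% and 8.22% of all tested transcripts that did not overlap control in either direction. The differences were 0.25 and 0.24 (SE 0.16 each), and their 95% intervals, -0.11 to 0.61 and -0.11 to 0.60, include 0. With the library slope as a covariate they were 0.42 (95% interval 0.12 to 0.71) and 0.27 (95% interval 0.0011 to 0.53), which leave out 0 but were not called. The log2 ratio of Grin2a-206 to Grin2a-201 was 1.67 to 1.80 in control, 0.45 to 1.66 in ethanol, 1.19 to 1.79 in stress and 0.71 to 1.45 in ethanol + stress libraries, and was chosen for description after the values were seen. Reads in the shared coding part fit both transcripts, so kallisto's split between them is an estimate that leans on reads in the 3' UTR.

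**Figure D4:**
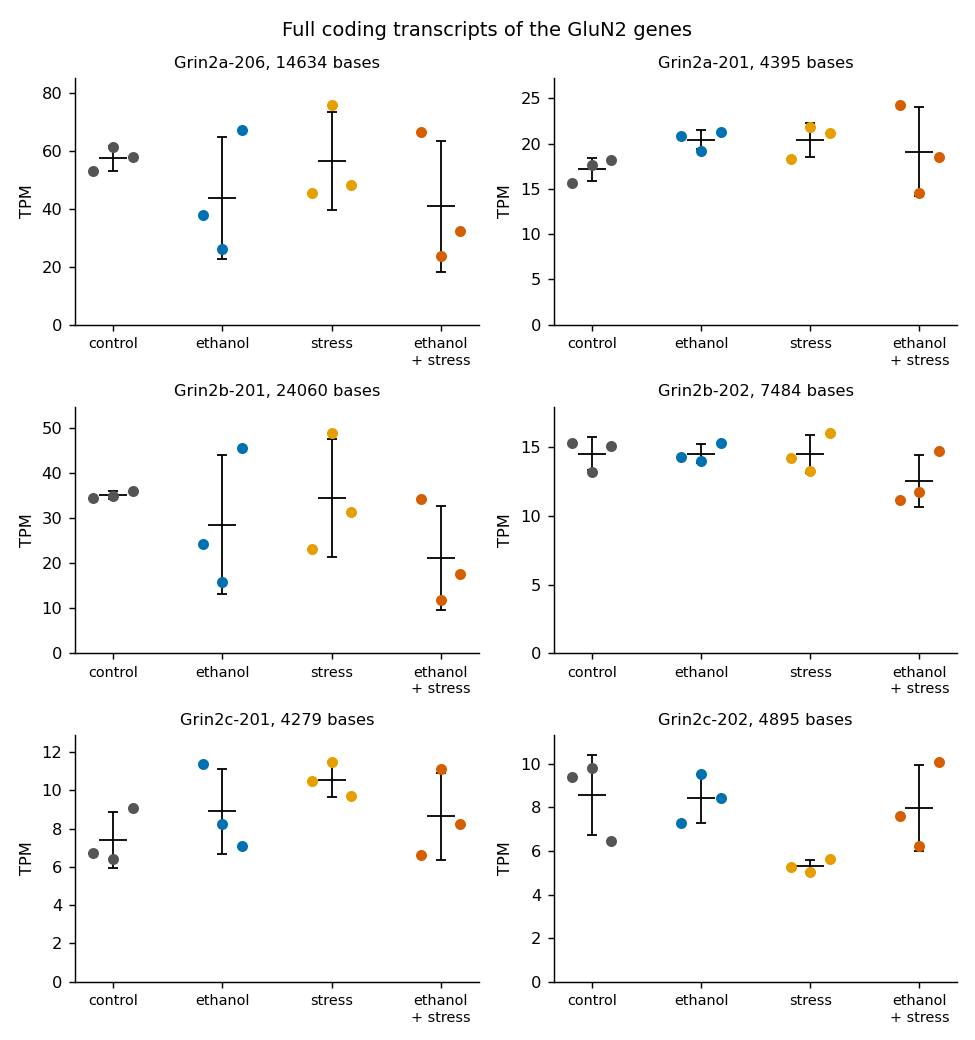
Level in TPM (vertical axes, from 0) of a pair of transcripts with full coding sequence for each of Grin2a, Grin2b and Grin2c in every library, with black bars for the mean ± SD of 3 libraries per group. The long forms Grin2a-206 and Grin2b-201 spread from 23.8 to 75.9 and from 11.8 to 48.9 TPM, Grin2b-202 stays between 11.2 and 16.03, and the 3 stress libraries of Grin2c-202 lie below all control libraries.

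Of the 36 transcripts, 33 passed the filter of 0.1 TPM in at least 6 libraries, and 10 of the 36 were listed at 0 in at least 1 library, where an exact 0 can be a failed estimate. None of the 33 was called in any comparison, beside 1.26% of the 59852 tested transcripts for ethanol, 0.914% for stress, 1.21% for ethanol + stress and 0.854% for the interaction. At an unadjusted p under 0.05 limma gave 1, 2, 3 and 1 of them, beside 5.43%, 3.88%, 5.57% and 4.06% of all tested transcripts. Treated and control libraries did not overlap in 2, 4 and 4 of the 33 for ethanol, stress and ethanol + stress, beside 10.2%, 8.22% and 10.2% of all tested transcripts.

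The transcript closest to a call was Grin2c-202 in stress mice. It had 5.29, 5.05 and 5.61 TPM, against 9.41, 9.82 and 6.48 TPM in control, so that the groups did not overlap. The difference was -0.62 (SE 0.20, 95% interval -1.07 to -0.17, adjusted p = 1 in limma), and all stress libraries were below all control libraries in 4.11% of tested transcripts. The other Grin2c transcript, Grin2c-201, was listed at 10.5, 11.5 and 9.69 TPM in stress and at 6.72, 6.38 and 9.08 TPM in control mice, a difference of 0.50 (SE 0.22, 95% interval 0.01 to 0.99). The share of Grin2c-202 in the gene's TPM was 58.3%, 60.6% and 41.7% in control and 33.5%, 30.5% and 36.7% in stress mice, while the sum of both transcripts differed by -0.01. In ethanol mice the share was 39.1%, 53.6% and 54.3%, and in ethanol + stress mice 53.5%, 35.95% and 55.1%, so both groups held libraries near stress and near control values.

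Both Grin2c transcripts code for the same protein from the same 3717 coding bases and differ at their 5' ends. On chr11, minus strand, Grin2c-201 begins with an exon at chr11:115265288-115265429, and Grin2c-202 has 3 exons further upstream, the first at chr11:115266990-115267243. A further exon is 414 bases long in Grin2c-201 and 511 in Grin2c-202. The call for Grin2c-202 turns on single settings, since it was called with recovered read pairs (-0.67), without the 3 libraries of lowest slope, and when control replicate 3 (-0.80) or ethanol + stress replicate 2 or 3 (-0.62) was left out, with adjusted limma values between 0.841 and 1.

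Of the other transcripts with a p under 0.05, those of Grin1, Grin2b and Grin2d were low or short, and the main Grin3a transcript was neither. Grin2d-202, a fragment of 1009 bases, had 0, 0 and 0.17 TPM in ethanol and 0.36, 0.24 and 0.31 TPM in control mice, at most 2.42 read pairs in any library, and 3.48% of tested transcripts had all ethanol libraries below control. In ethanol + stress mice these were Grin1-212, a noncoding transcript with 1.096, 0.82 and 0.30 TPM against 0.29, 0 and 0 in control and at most 4.19 read pairs, Grin2b-206, a 5' fragment of 601 bases with 9.45, 3.98 and 5.63 TPM against 8.08, 14.6 and 10.7 in control, and Grin3a-201, described below. Grin2b-206 rests on 14.1 to 43.9 read pairs per library. Grin2b-207, with 0 to 7.51 TPM over all libraries and at most 3.11 read pairs, was the one for the interaction. The few read pairs of Grin2d-202, Grin1-212 and Grin2b-207 carry a wide counting error.

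Grin3a-201 and Grin3a-202 differ by 60 coding bases, since the same coding exon on chr4 has 337 bases in the first (chr4:49665229-49665565) and 397 in the second (chr4:49665229-49665625). Grin3a-201, the shorter coding form, had 7.28, 4.50 and 5.58 TPM in ethanol + stress and 7.64, 8.89 and 8.49 TPM in control mice, a difference of -0.51 (SE 0.21, 95% interval -0.99 to -0.04) with no overlap, and 4.23% of tested transcripts had all ethanol + stress libraries below control. The longer form, Grin3a-202, had 2.79, 1.43 and 2.39 TPM in ethanol + stress, 1.93, 0.94 and 2.22 in control, 2.15, 0.90 and 3.21 in stress and 0.39, 0.55 and 1.503 in ethanol mice. Its share of both forms was 24.2% to 30.0% in ethanol + stress, 9.52% to 20.7% in control, 4.01% to 12.1% in ethanol and 9.04% to 31.4% in stress libraries, a measure added after the values were seen and given as a description.

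The 8 protein-coding transcripts of Grin1 are exactly the 8 combinations of N1, C1 and the C2 or C2' end. Forms without N1 carry the letter a and forms with N1 the letter b. Forms 4a, with the C2' end and without C1, and 3a, with C2' and C1, held the largest mean shares of the coding TPM, 30.6% and 29.9%. Forms 1a and 2a, with the C2 end, held 18.1% and 9.62%. Of the forms with N1, 4b held 8.83%, and 3b, 1b and 2b only 1.42%, 1.05% and 0.519%. Thus the estimated N1 transcripts were mostly those without C1. The rare b forms varied the most, for form 1b from 0.06 to 2.11 TPM. The forms share most of their sequence, so the split between them is an estimate.

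The N1 cassette sequence printed above was carried by 11.8%, 13.1% and 13.5% of the Grin1 coding TPM in control mice. Ethanol mice had 13.6%, 13.6% and 12.2% and stress mice 13.9%, 11.4% and 12.2%, both overlapping control. Ethanol + stress mice had 11.4%, 7.83% and 7.22%. These 3 libraries lay below all control libraries, with a mean of 8.83% ± 2.28 (SD, n = 3) against 12.8% ± 0.9, and the exact two-sided permutation test gave p = 0.1, the smallest p that 3 against 3 allows. Between all 6 separated and all 6 unseparated mice the share differed by -2.31 percentage points (exact permutation p = 0.0563), and Benjamini-Hochberg adjustment over the 20 exact permutation tests made gave 0.4 in both cases. Of the 3 low values, that of replicate 1 lies near control and those of replicates 2 and 3 come from libraries of low slope. Ethanol replicate 2, with the lowest slope of all, had 13.6%. The part of the slope in these shares was not tested and cannot be told apart from the exposure. Without the 3 libraries of lowest slope the separated mice differed from the unseparated by -0.61 percentage points (exact permutation p = 0.349), and the lone ethanol + stress library from control by -1.35.

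The C1 cassette was present in 46.3% to 53.7% of the Grin1 coding TPM in control, 46.7% to 50.5% in ethanol, 45.2% to 53.1% in stress and 51.7% to 55.7% in ethanol + stress libraries. Each treated group overlapped control, and the exact permutation p was 0.374 or more in each of the 5 comparisons. The ethanol and ethanol + stress libraries did not overlap each other, a difference that was not tested. The C2 end was carried by 24.5% to 32.7% of the coding TPM over all libraries, and the C2' end by the rest.

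**Figure D5:**
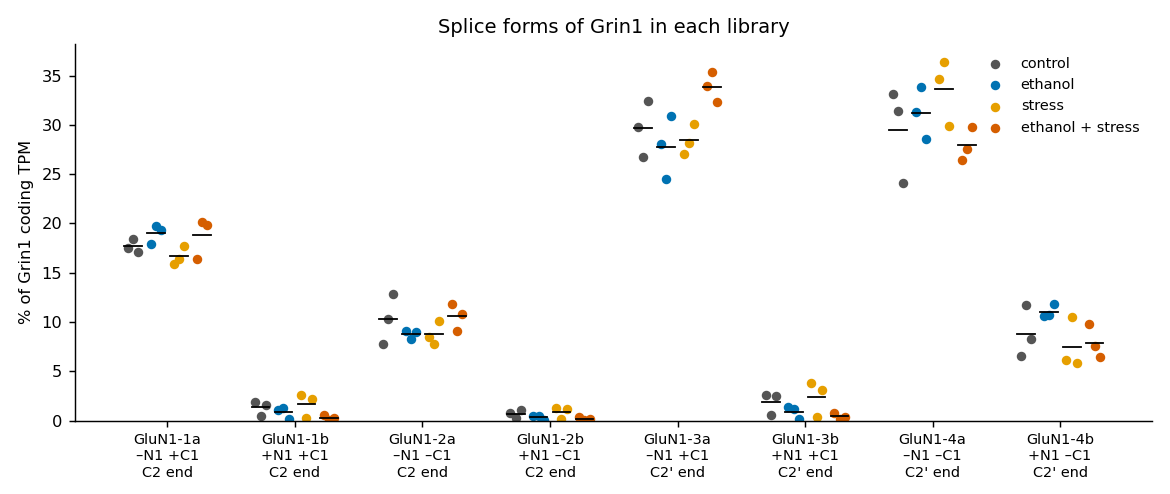
Share of each of the 8 GluN1 splice forms in the Grin1 coding TPM (vertical axis, percent, from 0) in every library, coloured by group, with a black line for the mean of 3 libraries. Forms 4a and 3a hold the largest mean shares, 30.6% and 29.9%, and among the forms with N1 only 4b, at 8.83%, is not near 0.

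The balance of Grin2a to Grin2b, which is known to rise as forebrain synapses mature, was taken as the log2 ratio of their TPM. It was 0.18, 0.04 and 0.08 in control, 0.15, 0.28 and 0.11 in ethanol, 0.13, 0.16 and -0.10 in stress and 0.48, 0.48 and 0.28 in ethanol + stress mice. The ethanol + stress libraries lay above all control libraries, with a mean of 0.41 ± 0.12 (SD, n = 3) against 0.10 ± 0.07 and an exact two-sided permutation p = 0.1, the smallest possible. This difference of 0.31 became 0.18 (exact permutation p = 0.2) with protein-coding transcripts and 0.22 (exact permutation p = 0.1) with recovered read pairs. The 6 ethanol-exposed mice exceeded the 6 unexposed by 0.21 (exact permutation p = 0.0195, 0.39 after Benjamini-Hochberg adjustment over the 20 exact permutation tests), with overlap. That difference was 0.08 (exact permutation p = 0.359) when only protein-coding transcripts were summed, 0.07 (exact permutation p = 0.435) with recovered read pairs, and 0.17 (exact permutation p = 0.143) without the 3 libraries of lowest slope. It was larger, 0.51 (exact permutation p = 0.00433), when the longest transcripts, Grin2a-206 and Grin2b-201, were left out, a setting chosen after the values were seen, and ethanol + stress then differed from control by 0.60 (exact permutation p = 0.1). In that setting Grin2b keeps the full coding Grin2b-202 (mean 14.0 TPM) beside the fragments Grin2b-203, Grin2b-204 and Grin2b-206 (10.4, 5.81 and 8.61). Grin2a keeps Grin2a-201 (19.3) beside the noncoding Grin2a-204 and Grin2a-205 (6.23 and 5.61), so this ratio is not one of full coding transcripts. The log2 ratio of all GluN2 genes to Grin1 lay between 0.68 and 1.09 over the 12 libraries, and differed by -0.12 between ethanol-exposed and unexposed mice (exact permutation p = 0.0801). That difference was -0.15 with protein-coding transcripts (exact permutation p = 0.0433), and permuting within replicate numbers, which did not pair the samples, gave an exact permutation p = 0.0185.

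Genes that act with the receptor were taken as lists: the co-agonist genes, the scaffold of the postsynaptic density, kinases, phosphatases and effectors, trafficking partners, Grin3b and the AMPA receptor subunits. All 44 listed genes were tested, and limma called none of them in any of the 4 comparisons, beside the percentages of genes given above. At an unadjusted p under 0.05 limma gave 0 of 44 for ethanol, stress and the interaction, and 5 of 44 for ethanol + stress, where 5.37% of all genes passed.

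The members with the smallest p in that comparison differed in direction. Nos1, the neuronal nitric oxide synthase that is tethered to the receptor, had 18.6, 14.0 and 17.2 TPM in ethanol + stress against 23.1, 20.5 and 22.6 in control mice (-0.41, SE 0.15). Cask, a scaffold kinase of the trafficking complex, had 46.0, 38.1 and 45.2 TPM against 50.2, 48.7 and 60.6 (-0.30, SE 0.11). Dlg4, which codes for PSD-95, the scaffold that binds GluN2 tails, had 238.4, 247.7 and 266.9 TPM against 217.0, 218.8 and 206.1 (0.23, SE 0.09). Slc7a10, a transporter of D-serine and other small amino acids, had 27.3, 31.6 and 25.9 TPM against 23.3, 21.4 and 21.8 (0.34, SE 0.13). In each of these 4 genes the ethanol + stress libraries did not overlap control, as was the case for 10.2% of tested genes. The adjusted p of each was 0.791 in limma.

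As measured in bulk tissue, fewer cells of a type and less RNA per cell cannot be told apart for any of these values. Fos, a gene of recent neuronal activity, was listed at 8.18, 14.6 and 5.74 TPM in ethanol + stress and at 23.1, 20.2 and 30.8 TPM in control mice (difference -1.41, SE 0.51). It was listed at 23.6, 5.37 and 8.60 TPM in stress mice (difference -1.19, SE 0.51), and the medians of the 5 immediate early genes were -0.66 and -0.52 for these groups, with none called. Its part in the results was not tested. No other marker list had a member called in the 3 comparisons with control, apart from the blood genes and Iyd, a CA3 gene, in ethanol + stress mice (0.61, SE 0.19). For the interaction, Tmem119, a microglia gene, was called (0.54, SE 0.17, adjusted p = 1 in limma).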

How the data were processed

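The deposited values are a signal, TPM per transcript, which the authors made with kallisto (Ensembl mouse transcriptome, mm10) from stranded, rRNA-depleted, paired-end libraries of total RNA. Their sums per library differ, so a scaling followed. CASAVA and sleuth are also named in the submitters' processing notes, and versions are not given in the sources used here. Identifiers of 113492 of the 115270 transcripts were found in GENCODE vM21. TPM were summed per gene. The tests took the 18420 genes and 59852 transcripts that reached 0.1 TPM in 6 libraries or more, on the log2(TPM + 0.5) scale, which understates changes at low levels. A single limma model (3.58.1, R 4.3.3, lmFit, trended eBayes) covered all groups, with no block for replicate number and two-sided tests. A call was an unadjusted p under 0.01, and Benjamini-Hochberg adjustment ran over every tested feature. The planned ratios and shares were compared by exact permutation tests over libraries. Read pairs were recovered from the steps of low values, with a mean fragment of 196 to 210 bp, and used for depth and for 1 alternative (5 or more read pairs). Floors on read pairs cover counting error only. The software was Python 3.11.15 with numpy 2.4.6, pandas 2.3.3, scipy 1.17.1 and matplotlib 3.10.9, and the model was checked on simulated data.

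The members, lists and tests were chosen with earlier results of these data known. Named genes are the 6 members and their tested transcripts, the called member of each list or else the one with the smallest p, and the 3 genes most correlated with Grin1, Grin2a and Grin2b at a mean of 5 TPM or more. Fos was named after its values were seen. Alternatives were other pseudocounts (0.1, 1), other filters (1 TPM, or none), median-of-ratios scaling, a common total, eBayes without trend, only the groups compared, a replicate block, removal of the length trend, recovered read pairs, protein-coding transcripts, and leaving out each replicate. Chosen after seeing the data were the slope as a covariate, leaving out the 3 libraries of lowest slope, and, for the Grin2a to Grin2b ratio, read pairs and leaving out the longest transcripts. Further lists held markers of dentate granule, CA1, CA3 and cerebellar granule cells, interneurons, astrocytes, oligodendrocytes, microglia, choroid plexus, blood, thalamus and striatum, and genes of recent activity and male sex. The methylation libraries were not analysed here.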

Additional observations from a re-analysis of the deposited data

How the results depend on the processing

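No member gene was called under any alternative that keeps all 12 libraries. Of the transcripts, 1 was called for stress with recovered read pairs (Grin2c-202), 1 each for ethanol, stress and the interaction with the library slope as a covariate (Grin1-207, Grin2b-204 and Grin3a-201), and 1 each for ethanol and stress without the 3 libraries of lowest slope (Grin2a-202 and Grin2c-202). The cause was not tested. Leaving out each replicate in turn gave 0 to 2 called genes for ethanol + stress, and 0 to 1 called transcripts in each of the 4 comparisons. The genes were Grin1 and Grin2b, without ethanol + stress replicate 1. The transcripts were Grin2d-202 without ethanol replicate 3, Grin2c-202 in stress without control replicate 3 or ethanol + stress replicate 2 or 3, Grin2b-206 without ethanol + stress replicate 1 and Grin2a-202 without replicate 3, and, for the interaction, Grin2b-207 without control replicate 2 or ethanol + stress replicate 3.

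Several differences changed direction, including those of Grin1 and Grin2a in ethanol + stress. With the slope as a covariate, ethanol differed from control by 0.020 for Grin2d, 0.22 for Grin1, 0.11 for Grin2b and 0.19 for Grin2a, stress by 0.040 for Grin2a, and ethanol + stress by 0.052 for Grin2d, -0.033 for Grin2c and 0.036 for Grin2a. Without the 3 libraries of lowest slope, ethanol differed by 0.091 for Grin1, ethanol + stress by 0.15 for Grin2d, -0.16 for Grin2c, 0.16 for Grin1, 0.034 for Grin3a and 0.23 for Grin2a, and the interaction was 0.17 for Grin1, 0.017 for Grin3a and 0.25 for Grin2a. For Grin3a, ethanol gave -0.010 with median-of-ratios scaling, -0.072 with a common total and -0.029 with read pairs. Grin2b in stress was -0.082 with read pairs, and Grin2c in ethanol + stress -0.082 with a common total.

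Leave-one-out ranges that crossed 0 were -0.24 to 0.091 for Grin1 and -0.11 to 0.071 for Grin3a in ethanol, -0.037 to 0.017 for Grin2c, -0.076 to 0.16 for Grin2b and -0.16 to 0.086 for Grin2a in stress, -0.22 to 0.11 for Grin2d and -0.022 to 0.15 for Grin2c in ethanol + stress, and -0.0089 to 0.33 for Grin2d, -0.13 to 0.053 for Grin2c, -0.39 to 0.039 for Grin1 and -0.41 to 0.061 for Grin2a in the interaction. In ethanol + stress they were -0.58 to -0.15 for Grin1, -0.85 to -0.38 for Grin2b, -0.57 to -0.10 for Grin2a, -0.26 to -0.080 for Grin3a and -1.26 to -0.51 for Grin2b-201, each from without replicate 1 to without replicate 2.

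The Grin2a to Grin2b ratio differed by -0.040 for ethanol and 0.044 for stress with read pairs and by 0.022 for stress with protein-coding transcripts. For ethanol-exposed against unexposed mice it was 0.078 with protein-coding transcripts, 0.066 with read pairs, 0.17 without the 3 libraries of lowest slope and 0.51 without the longest transcripts. The leave-one-out range for stress was -0.084 to 0.045. The GluN2 to GluN1 ratio of ethanol-exposed mice differed by -0.15 with protein-coding transcripts (exact permutation p = 0.0433) and by -0.12 with the replicate block (exact permutation p = 0.0185), with leave-one-out ranges of -0.15 to -0.082, and -0.14 to 0.0056 for ethanol alone. Leaving out control replicate 1 (-0.15) also took its exact permutation p under 0.05. The C1 share of separated mice differed by -0.30 percentage points without the 3 libraries of lowest slope. Leave-one-out ranges were -0.13 to 0.83 (ethanol), -0.98 to 0.26 (stress) and -2.95 to -1.62 (separated) percentage points for the N1 share and -3.53 to 0.66 for the C1 share in stress. The N1 share of separated mice passed 0.05 in the exact permutation test without stress replicate 1 (-2.95) or 3 (-2.62). Summing protein-coding transcripts alone put the mean of Grin3a at 9.37 TPM instead of 12.6. Replicate numbers did not pair the samples, with correlations of same-numbered deviations from -0.088 to 0.040 against control and from -0.11 to 0.16 between both ethanol groups, and the replicate block changed no other call. Depth limits the transcripts of a few read pairs most, and 3 libraries per group limit every comparison.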
